A study of Mus musculus with 6 samples.

Results

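Translation elongation factors carry the ribosome along the mRNA once synthesis of a protein has begun. Ribosome footprints on their transcripts were compared between wild-type (WT) and Mettl18 knockout (KO) cells of the mouse pancreatic acinar line 266-6, with 3 libraries of each. The set was defined by 6 Ensembl transcript identifiers, for Eef1a1, Eef1a2, Eef2, Eef1g, Eef1b2 and Eif5a. A row was kept where its deposited length value equalled the protein's number of residues minus 9. The rule found 4 of the 6 among 142314 rows, and all 4 passed the filter on low counts. The identifiers listed for Eef1g and Eef1b2 matched no row, so these subunits of the exchange factor eEF1B were not analysed here. The names come from the list that defines the set, since the files hold identifiers only.

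All 6 libraries came from cells transfected with a plasmid encoding Reg1 with a FLAG tag and kept in culture for 48 h. WT and KO cells therefore share the transfection, and they differ in the labels only by genotype. Ribosomes were held on the mRNA with 100 μg/ml cycloheximide during lysis, unprotected RNA was digested with RNase I, and the protected fragments were sequenced. METTL18 methylates a histidine of the ribosomal protein RPL3, and the study asked how its loss affects translation. The labels do not say whether the KO cells are 1 clone or whether replicates were grown separately, so p-values measure only the spread between these libraries, which may be technical. Acinar markers and Mettl18 itself were not analysed here, because identifiers were not paired with symbols, so neither the cell type nor the genotype was checked.

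In each elongation cycle, eEF1A brings an aminoacyl-tRNA to the ribosome as a complex with GTP. eEF1B then recharges eEF1A with GTP, and eEF2, another GTPase, moves the tRNAs and the mRNA by a codon. eIF5A, which carries the modified lysine hypusine, promotes peptide bond formation where ribosomes stall, as on runs of proline. Eef1a1 and Eef1a2 encode closely related forms of eEF1A, of which the second is known mainly from muscle and neurons. Messages of several elongation factors are classic 5′ terminal oligopyrimidine (TOP) mRNAs, which start with a C followed by pyrimidines and are controlled together with ribosomal protein mRNAs.

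The 4 genes lie on different chromosomes. Eef1a1 lies at chr9:78478453-78481724 on the minus strand, Eef1a2 at chr2:181141758-181157015 on the minus strand, Eef2 at chr10:81176631-81182509 on the plus strand and Eif5a at chr11:69916712-69921958 on the minus strand (RefSeq, GRCm38.p6; matched by symbol). The 100 bases before the annotated start are shown for the eEF1A paralogs, whose footprint levels lay furthest apart, and for Eef2, with capitals marking TATAA, the letters of a TATA box.
Eef1a1, chr9:78481725-78481824, minus strand: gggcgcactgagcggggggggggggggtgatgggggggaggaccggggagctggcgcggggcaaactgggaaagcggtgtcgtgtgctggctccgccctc
Eef1a2, chr2:181157016-181157115, minus strand: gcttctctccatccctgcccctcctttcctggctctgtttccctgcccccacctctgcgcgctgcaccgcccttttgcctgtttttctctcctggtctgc
Eef2, chr10:81176531-81176630, plus strand: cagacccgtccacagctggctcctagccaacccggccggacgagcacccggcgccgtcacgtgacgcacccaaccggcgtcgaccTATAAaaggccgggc
G and C made up 76.0% of the Eef1a1 stretch, 62.0% of that of Eef1a2 and 70.0% of that of Eef2, against a median of 55.0% over 32851 listed starts. The stretches held 8, 3 and 13 CG dinucleotides, against a median of 3. TATAA was searched on both strands from 250 bases before to 50 bases after each start, and 24.9% of all such windows held it. In Eef2 it began 15 bases before the annotated start. In Eef1a1 it began at base 26 of the annotated transcript, in this 30-base window.
Eef1a1, chr9:78481682-78481711, minus strand: gggagaacggtaTATAAgtgcggcagtcgc
Neither the Eef1a2 window nor any of the 6 listed for Eif5a held TATAA. None of the windows of the 4 genes had a C followed by at least 4 pyrimidines exactly at the annotated start, which 2.51% of all windows had. These matches describe the annotated windows only, and an annotated start can lie away from the start used in these cells.

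Footprints were more abundant in Mettl18 KO cells for Eef1a1, which encodes a form of the factor that delivers tRNA. It was the 1 transcript of 4 to pass the test, narrowly, with a rise of 1.86-fold. The estimate for Eif5a was 1.56-fold, with KO libraries all above WT libraries, but it missed the threshold. Eef2 and Eef1a2 were estimated at 1.30-fold and 1.43-fold, and their WT and KO libraries overlapped. None of the 4 fell: all 4 estimates lay above 0 in edgeR, DESeq2 and limma-voom, so that 0 fell at an unadjusted p as well. All transcripts were fitted together with edgeR (quasi-likelihood), and a transcript was called at an adjusted p under 0.05. By this rule 9.43% of 30588 transcripts were called, 5.14% higher in KO and 4.3% lower. The share of calls that were higher was 54.5%, and 44.4% with scaling by library size alone. With a library left out it ran from 48.45% to 57.1%. Among the 1877 transcripts of at least 100 CPM (counts scaled to a common library total), the class that holds 3 of the 4 factors, 10.1% were higher. KO libraries all lay above WT libraries for 2 of the 4 factors, against 15.5% of all transcripts and 26.5% of those of at least 100 CPM. The median log2 fold change of the 4 was 0.58, against -0.06 over all transcripts and 0.16 over those of at least 100 CPM.

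These are footprints without matched RNA here, so more mRNA and more ribosomes per mRNA cannot be told apart, nor can a change in every cell be told from a change in some of them. Library totals, with rows of identical counts kept once, ran from 3792964 to 5131937 in WT and from 5379044 to 7106203 in KO, so the KO libraries were the deeper ones. KO replicates 2 and 3 were the closest pair of libraries (chi-square per degree of freedom 1.32, against 4.52 to 11.0 among WT libraries), and their values below may not be independent. Libraries also differed in how footprints were spread over long and short transcripts. The median log2 deviation of long transcripts (length value 1000 or more), less that of short ones (under 200), was -0.06, -0.29 and 0.46 in WT replicates 1 to 3 and 0.17, -0.17 and -0.14 in KO replicates 1 to 3.

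Eef1a1 encodes the main eEF1A of most tissues. Its full-length row, ENSMUST00000042235.14 with a length value of 453 (462 residues), held 4030, 4409 and 4409 counts in WT replicates 1 to 3 and 10217, 13270 and 10346 in KO replicates 1 to 3. Scaled by TMM, which sets libraries to a common level, these were 906, 1226 and 803 CPM in WT and 1449, 1967 and 2043 CPM in KO. The groups did not overlap, with the highest WT library, replicate 2, below the lowest KO library, replicate 1. WT libraries averaged 978 ± 221 CPM and KO libraries 1820 ± 323 CPM (SD, n = 3 each). The log2 fold change of KO over WT was 0.90 ± 0.24 (SE; 95% interval 0.36 to 1.43; edgeR's quasi-likelihood test, adjusted p = 0.046). By its mean level Eef1a1 ranked 37 among the 30588 transcripts, and its fold change stood at the 95.8th percentile.

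The call on Eef1a1 depended on which libraries entered the fit and on the terms of the fit. It was lost without WT replicate 1 (log2 fold change 0.83, edgeR adjusted p = 0.146), without WT replicate 3 (0.78, 0.066), without KO replicate 2 (0.84, 0.212) and without KO replicate 3 (0.81, 0.2085). It was lost as well with KO replicates 2 and 3 summed as 1 sample (0.82, 0.199). With all libraries kept and a term for the replicate number added, it was also lost (0.90, 0.066). Without WT replicate 2 and without KO replicate 1 the transcript was still called, at 1.10 and 1.04. The estimate thus stayed between 0.78 and 1.10 with any 1 library left out. With counts thinned at random to equal library totals it was 0.89 (edgeR adjusted p = 0.046). Thinning keeps the expected proportions of each library, so the part of depth in the estimate was not tested by it. With each library's trend over the length value taken out the estimate was 1.00 and the edgeR adjusted p was 0.059. That trend was fitted to values without TMM scaling and removed on top of it. The setting thus takes out each library's overall level again, and the part of length alone was not tested.

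A row within 10 lines of Eef1a1 in the files, with counts within 2-fold of it in every library, was taken to share its reads. It had a length value of 239 and held 57.6% to 59.1% of the full-length row's count in WT and 58.9% to 59.9% in KO. The count of this row thus stood in nearly the same ratio to that of Eef1a1 in all 6 libraries; whether it covers a part of the same transcript was not tested. Reads from near-identical copies may also be counted: the RefSeq table lists 2 pseudogenes under the name of Eef1a1, and how reads with several matches were handled is not given in the sources used here. The values of Eef1a1 are uncertain to that extent. Outside its own neighbourhood, the transcript of at least 100 CPM whose log2 CPM followed Eef1a1 most closely over the 6 libraries was ENSMUST00000212709.1, with a length value of 138 (Pearson's r = 0.997, a description, chosen as the highest of 1877). It had no paired name. Its counts were 19.1% to 20.1% of those of Eef1a1 in WT and 18.2% to 19.1% in KO, and whether the rows share reads was not tested.

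**Figure D1:**
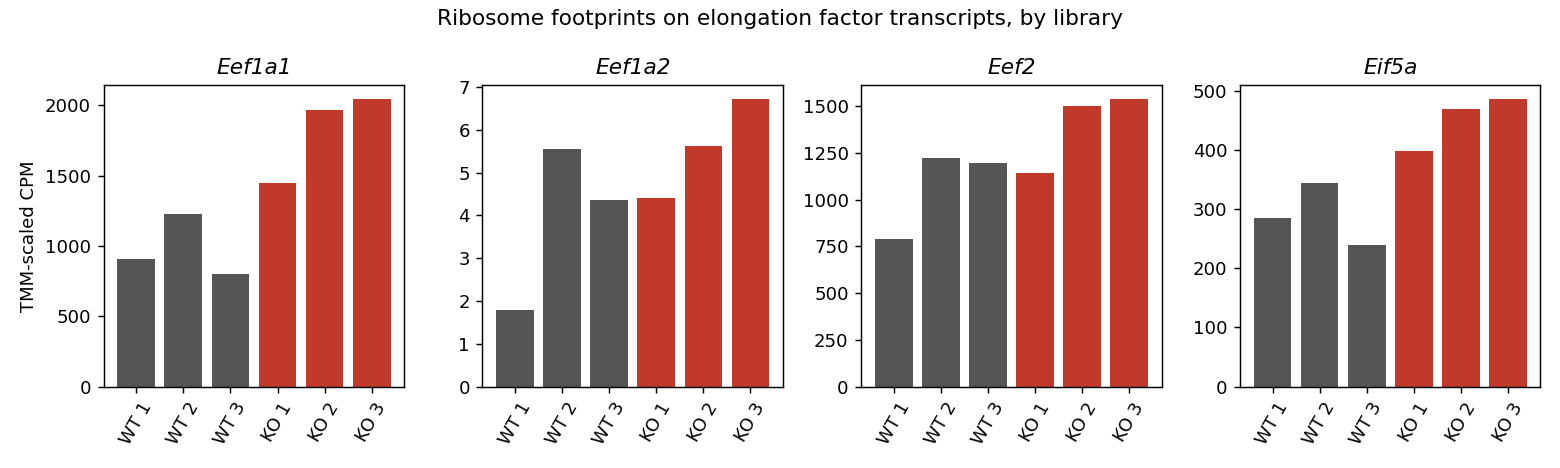
TMM-scaled CPM of Eef1a1, Eef1a2, Eef2 and Eif5a (1 panel each, y axes from 0 with different ranges) in the 3 WT libraries (grey bars) and 3 KO libraries (red bars). For Eef1a1 and Eif5a each KO bar is higher than each WT bar, while for Eef2 and Eef1a2 the lowest KO bar lies below the highest WT bar.

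Eef1a2, the other form of eEF1A, had almost no footprints. Its row, ENSMUST00000055990.7 with a length value of 454 (463 residues), held 8, 20 and 24 counts in WT and 31, 38 and 34 in KO. These were 1.80, 5.56 and 4.37 CPM in WT replicates 1 to 3 and 4.40, 5.63 and 6.71 CPM in KO replicates 1 to 3. WT replicate 1 was the lowest library, and the other WT libraries overlapped with KO. The log2 fold change was 0.52 ± 0.37 (SE; 95% interval -0.31 to 1.35; edgeR adjusted p = 0.413), and without WT replicate 1 it was 0.15. The summed counts were 52 in WT and 103 in KO. Each sum was divided by the summed library totals of its group, without TMM scaling, which gave a ratio of KO to WT of 1.34. Counting alone limits this ratio to between 0.949 and 1.90 (exact binomial 95% interval, counting error only). The fitted interval, which includes the spread between libraries, is wider, and both include no change.

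The paralogs were compared per length, as CPM per 100 units of length value. Eef1a1 had 216 ± 48.7 in WT and 402 ± 71.3 in KO, and Eef1a2 had 0.861 ± 0.423 and 1.23 ± 0.255 (SD, n = 3 each). Within libraries, the Eef1a1 level was 505, 221 and 184 times that of Eef1a2 in WT replicates 1 to 3 and 330, 350 and 305 times in KO replicates 1 to 3. The KO values lay inside the WT range. The log2 ratio of Eef1a2 to Eef1a1 averaged -8.10 ± 0.78 over WT and -8.36 ± 0.10 over KO libraries, and the gap of -0.26 was within the spread of the WT libraries (exact two-sided permutation p = 0.6; adjusted over 2 ratios 0.6). Leaving out WT replicate 3 turned the gap to 0.0265. The 8 to 38 counts of Eef1a2 in a library limit this ratio. Counts on the eEF1A rows were almost wholly those of Eef1a1 in each of the 6 libraries. How reads that match both paralogs were handled is not given in the sources used here.

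Eef2 encodes the translocation factor, the target of the inhibitory kinase eEF2K and the carrier of the modified histidine diphthamide. Its row, ENSMUST00000047864.10 with a length value of 849 (858 residues), held 3512, 4400 and 6571 counts in WT and 8074, 10136 and 7786 in KO. In CPM these were 790, 1223 and 1196 in WT replicates 1 to 3 and 1145, 1502 and 1538 in KO replicates 1 to 3. KO replicate 1 lay below WT replicates 2 and 3, so the groups overlapped. WT averaged 1070 ± 243 CPM and KO 1395 ± 217 CPM (SD, n = 3 each), with rank 44 among all transcripts. The log2 fold change was 0.38 ± 0.24 (SE; 95% interval -0.14 to 0.91; edgeR adjusted p = 0.335), and the interval allows both no change and a rise as large as that estimated for Eef1a1. Without WT replicate 1, the lowest library, it was 0.19. No other row within 10 lines had counts within 2-fold of it in every library, and the RefSeq table lists 1 pseudogene under its name.

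Eif5a encodes the hypusine-carrying factor. Its row, ENSMUST00000043419.9 with a length value of 145 (154 residues), held 1266, 1237 and 1316 counts in WT and 2805, 3165 and 2459 in KO. These were 285, 344 and 239.6 CPM in WT replicates 1 to 3 and 398, 469 and 486 CPM in KO replicates 1 to 3. The groups did not overlap. WT averaged 289 ± 52.3 CPM and KO 451 ± 46.6 CPM (SD, n = 3 each). The log2 fold change was 0.64 ± 0.19 (SE; 95% interval 0.22 to 1.06; edgeR's quasi-likelihood test, adjusted p = 0.060), so the transcript was not called. It was called with scaling by library size alone (0.56, edgeR adjusted p = 0.033), with a filter at a mean of 5 CPM (0.63, 0.049), in DESeq2 (0.65, 0.016) and without WT replicate 2 (0.79, 0.020). Over all alternatives the estimate ran from 0.52 to 0.79 and the adjusted p from 0.016 to 0.253.

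The Eif5a row stands for 11 rows, since 10 others had the same length value in its neighbourhood and identical counts in every library, so that its isoforms cannot be told apart. By the same rule as for Eef1a1, 2 further rows were taken to share its reads, which was not tested. The one with a length value of 139 held 94.7% to 96.6% of its count in WT and 96.3% to 98.4% in KO. The one with a length value of 67 held 50.6% to 60.6% in WT and 52.1% to 54.9% in KO. Both shares overlapped between the genotypes, so the shorter rows followed the count of Eif5a, which their choice by the 2-fold rule fixes in part. The RefSeq table lists 1 pseudogene named after an Eif5a-like gene.

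In KO, all 4 factors were highest in replicate 3 and lowest in replicate 1. In WT, Eef1a1 and Eif5a were both highest in replicate 2 and lowest in replicate 3, while Eef2 and Eef1a2 were both highest in replicate 2 and lowest in replicate 1. WT replicate 3 and KO replicate 1 were also the libraries with the highest contrast of long against short transcripts in their groups, and the part of that trend in the order of the libraries was not tested. Together the 4 transcripts held 0.238% ± 0.0288 of the counts in WT libraries and 0.353% ± 0.0453 in KO libraries (SD, n = 3 each). The total keeps rows of identical counts once, but other rows that may hold the same reads stayed in it, as in the totals behind CPM. These are thus shares of row counts and not of footprints. The lowest KO share, 0.301%, was above the highest WT share, 0.265%. Most of these counts were those of Eef1a1 and Eef2 (33833 and 25996 in KO, against 8429 for Eif5a). Among single transcripts of at least 100 CPM, 26.5% had KO libraries all above WT libraries. That percentage rests on TMM-scaled CPM, while the shares of the 4 transcripts used counts without TMM scaling.

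**Figure D2:**
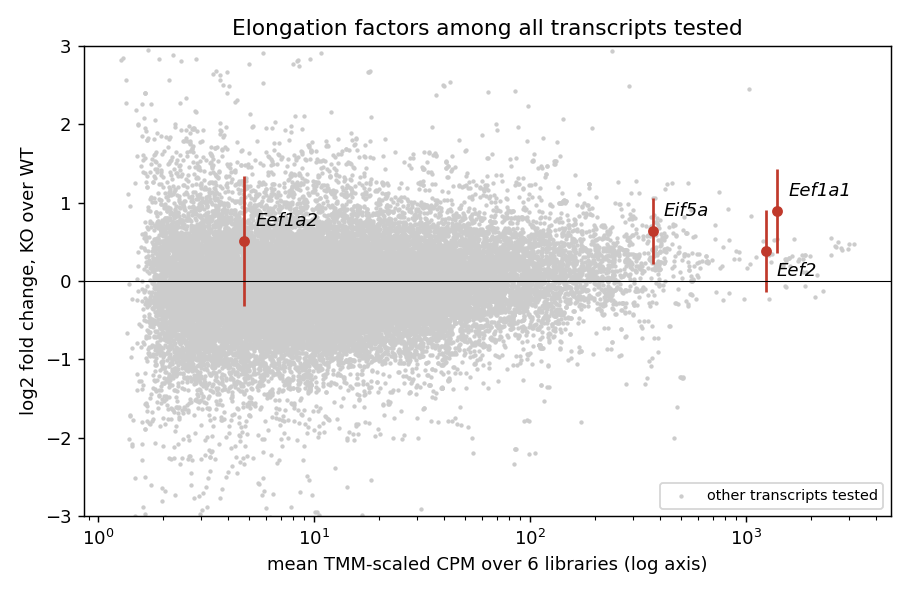
Log2 fold change of KO over WT against mean TMM-scaled CPM (log x axis) for the transcripts tested (grey points) and the 4 elongation factors (red points, bars are 95% intervals). The y axis ends at 3 and -3, beyond which 95 transcripts lie. The intervals of Eef1a1 and Eif5a lie above 0, and those of Eef2 and Eef1a2 cross it.

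Per length, Eef1a1 and Eif5a had the highest footprint levels of the set, Eef2 followed and Eef1a2 was far below. In WT the levels per 100 units of length value were 216 ± 48.7 for Eef1a1, 199.6 ± 36.1 for Eif5a and 126 ± 28.6 for Eef2 (SD, n = 3). The libraries of Eef1a1 and Eif5a overlapped there, at 177 to 271 and 165 to 237, although Eef1a1 was the higher within each library. The WT libraries of Eef2, at 93.0 to 144, lay below all of these. In KO the levels were 402 ± 71.3, 311 ± 32.1 and 164 ± 25.5. The lowest KO library of Eef1a1, at 320, lay within the range of Eif5a, 274 to 335, and Eef2, at 135 to 181, was again lowest of the 3. Among the 26872 transcripts whose length value was 100 or more, Eef1a1 ranked 78 per length, Eif5a 102 and Eef2 251.

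**Figure D3:**
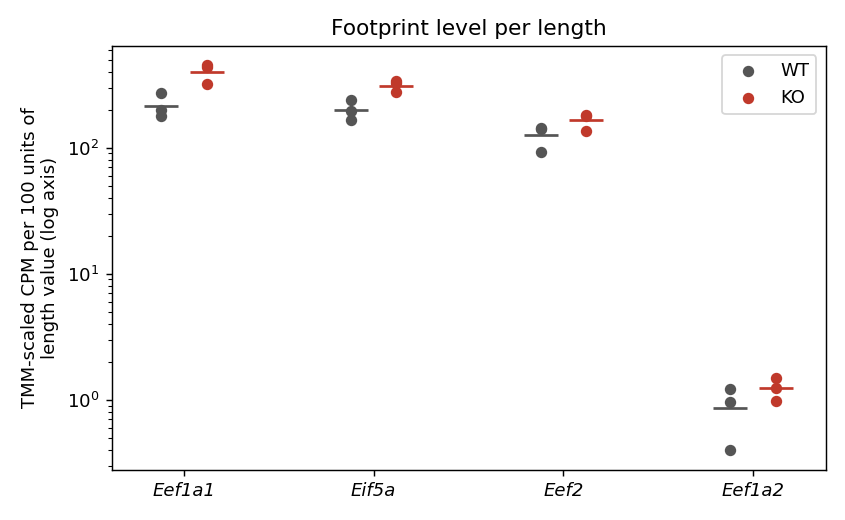
Footprint level per length (TMM-scaled CPM per 100 units of length value, log axis) of the 4 factors in WT (grey) and KO (red) libraries; points are libraries and lines are means of 3. Eef1a1 and Eif5a overlap within each genotype, Eef2 lies below both, and Eef1a2 is near 1.

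Eef2 footprints were fewer relative to Eef1a1 in each KO library than in any WT library. The Eef1a1 level per length was 2.15, 1.88 and 1.26 times that of Eef2 in WT replicates 1 to 3 and 2.37, 2.45 and 2.49 times in KO replicates 1 to 3. The KO libraries lay close together and the WT libraries were spread. The log2 ratio of Eef2 to Eef1a1 averaged -0.78 ± 0.40 over WT and -1.29 ± 0.04 over KO libraries (SD, n = 3 each). The difference of -0.50 had an exact two-sided permutation p of 0.1, the smallest that 3 against 3 allows, and 0.2 after adjustment over the 2 ratios, so it did not pass. Without WT replicate 3 it was -0.28. That library had the highest contrast of long against short transcripts (0.46), and Eef2 is the longer transcript of the pair; the part of this trend in the ratio was not tested.

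The ratio of Eif5a to Eef1a1 is given as a description. Within a library, the Eef1a1 level per length was 1.02, 1.14 and 1.07 times that of Eif5a in WT replicates 1 to 3 and 1.17, 1.34 and 1.35 times in KO replicates 1 to 3. Eef1a1 was thus the higher of the pair in all 6 libraries. The log2 ratio of Eif5a to Eef1a1 averaged -0.11 ± 0.08 over WT and -0.36 ± 0.12 over KO libraries (SD, n = 3 each). KO replicate 1, at -0.22, lay near WT replicate 2, at -0.19, and the difference between genotypes was not tested.

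**Figure D4:**
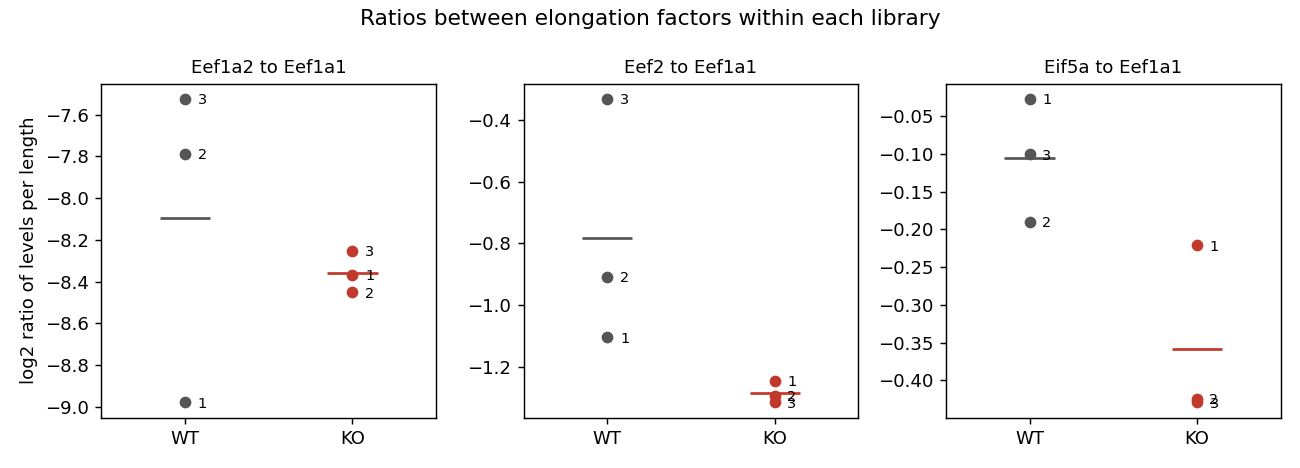
Log2 ratio of footprint levels per length between pairs of factors within each library (points, numbered by replicate; lines are means of 3) in WT (grey) and KO (red), with a different y range in each panel. The KO points of Eef2 to Eef1a1 lie between -1.32 and -1.25, below the WT points at -1.10 to -0.33, while for Eef1a2 to Eef1a1 they lie inside the WT range.

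**Figure D5:**
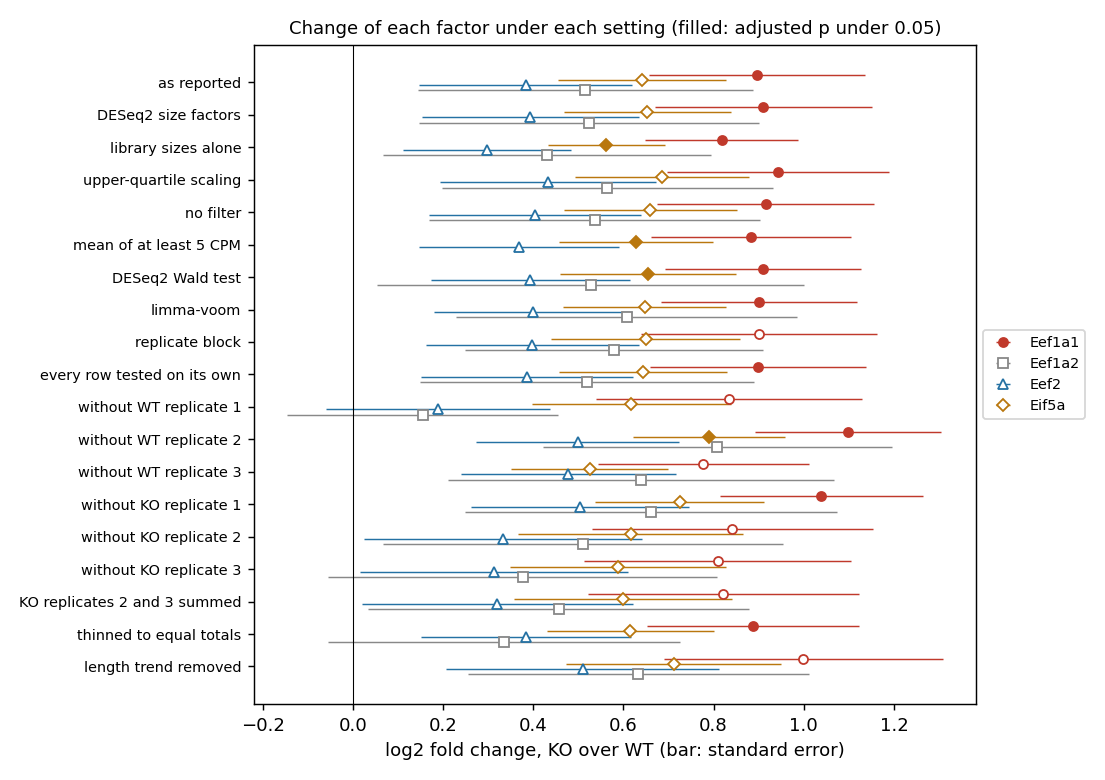
Log2 fold change of KO over WT (points; bars are standard errors) of the 4 factors as reported and under each alternative setting, with filled symbols for an adjusted p under 0.05. All points lie right of 0; Eef1a1 is filled as reported and in 11 of 18 alternatives, Eif5a in 4 of 18, and Eef2 and Eef1a2 in none.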

How the data were processed

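The authors deposited raw footprint counts, 1 file per library, each row holding a transcript identifier, a length value of unstated unit that was the same in all 6 files and a count. The tools named, per the submitters' processing notes, are STAR 2.7.0a, UMI-tools 1.1.2, cutadapt 3.7 and CASAVA 1.8, with the build mm10. The role of each, like the counting program and the strand setting, is not given in the sources used here. The members and the comparisons were chosen with earlier results of these data known.

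Of 54710 rows with a count, 39355 were distinct, after merging rows whose counts agreed in every library. The deposited counts were fitted in R 4.3.3 with edgeR 4.0.16 (filterByExpr, TMM scaling, quasi-likelihood, no term but genotype), and p-values were adjusted by Benjamini-Hochberg over 30588 rows; the script was tested on simulated data. Standard errors are the fold change divided by the root of F. Ratios between factors used exact permutation tests (scipy 1.17.1). Rows were taken to share reads where they lie within 10 lines and 2-fold in every library. The named genes were the members. Alternatives were other scalings and filters, limma-voom (limma 3.58.1), DESeq2 1.42.0, a replicate block, each library left out, KO replicates 2 and 3 summed, equal totals and, chosen after seeing the data, removal of the length trend. The planned list of other elongation and termination genes and the cell type markers had no paired identifiers and were not analysed here. Promoter sequences are from RefSeq (GRCm38.p6), matched by symbol for 4 of 4 genes.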

Additional observations from a re-analysis of the deposited data

How the results depend on the processing

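The log2 fold changes of all 4 factors stayed above 0 in each alternative run. For Eef1a1 (0.90, adjusted p 0.046 in edgeR) the call held in 11 of 18 alternatives. It was lost with KO replicates 2 and 3 summed (0.82), with the length trend removed (1.00) and without WT replicate 1, WT replicate 3, KO replicate 2 or KO replicate 3; the range with each library left out was 0.78 to 1.10. For Eif5a (0.64) a call was gained with library sizes alone (0.56), a filter at 5 CPM (0.63), DESeq2 (0.65) and without WT replicate 2 (0.79). Its range with a library left out was 0.52 to 0.79. Eef2 (0.19 to 0.51) and Eef1a2 (0.15 to 0.81) were not called in any alternative, and Eef1a2 was not tested with the filter at 5 CPM. The ratio of Eef1a2 to Eef1a1 differed by -0.26, and by -0.70 to 0.0265 with a library left out; it turned positive without WT replicate 3. That of Eef2 to Eef1a1 differed by -0.50, and by -0.67 to -0.28. The planned ratio of Eef1b2 to Eef1g was not run, since these were not analysed here.

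With the replicate block the log2 fold change of Eef1a1 was 0.90 and the call was lost (edgeR adjusted p 0.066); it changed no other call on the factors. Libraries of the same number had deviations from their group means that correlated at -0.05, 0.41 and -0.39 across transcripts. The highest value between a WT and a KO library was 0.63, for WT replicate 3 and KO replicate 1. The labels do not say whether equal numbers share a culture or a day, and whether they do was not tested.

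Over all transcripts, 1571 were called higher and 1314 lower in KO, against 436 and 356 with KO replicates 2 and 3 summed, and 368 to 2223 and 302 to 1718 with a library left out. Calls higher in KO were 54.5% of all, against 44.4% with library sizes alone, 60.8% with upper-quartile scaling and 64.4% with the length trend removed. That last setting also takes out each library's overall level again, on top of TMM. With a library left out the share ran from 48.45% (without WT replicate 3) to 57.1% (without KO replicate 1). Depth limits Eef1a2 most, with 8 to 38 counts per library.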
